A study of Mus musculus with 9 samples.

Results

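Secreted Wnt antagonists are extracellular proteins that lower Wnt signalling outside the cell. The 9 genes described here, Sfrp1, Sfrp2, Frzb (also called Sfrp3), Sfrp4, Sfrp5, Dkk1, Dkk2, Dkk3 and Wif1, were taken by gene symbol from the 31274 entries of a table of uterine RNA-Seq, and all 9 had an entry. RNA came from the whole uterus of C57BL/6 mice at day 4.5 of pseudopregnancy. The 9 libraries came from separate mice, 4 of them controls of genotype Wnk1f/f and 5 conditional knockout mice of genotype Wnk1d/d. Both genotypes carried Wnk1 alleles floxed around exon 2. Wnk1d/d mice also carried Cre under the progesterone receptor gene, which is not active in cells without that receptor, such as endothelial and immune cells, so Wnk1 is retained there, and which is also active in the ovary and pituitary. The methods of the study give virgin females of 6 to 10 weeks, made pseudopregnant by vasectomized males. Levels are FPKM, which divides a gene's fragments by its length in kilobases and by the size of the library, so levels of different genes can be set side by side.

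Wnt proteins bind Frizzled receptors together with the co-receptors LRP5 and LRP6, which stabilizes beta-catenin and lets it act with TCF and LEF factors on target genes. Secreted frizzled-related proteins (SFRPs) hold a domain like that of the Frizzled receptors and can bind Wnt proteins, as does WIF1, whereas Dickkopf proteins such as DKK1 and DKK2 bind LRP5 and LRP6. DKK3 is a divergent Dickkopf protein that does not act through these co-receptors in the same way. Wnt signalling is known for its part in gland formation, implantation and decidualization of the uterus.

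Wnk1 itself, a check of the labels, was 45.3 ± 1.62 FPKM (SD, n = 4) in Wnk1f/f and 31.2 ± 1.62 FPKM (SD, n = 5) in Wnk1d/d uteri, and was lower in every Wnk1d/d library (log2 difference -0.52, limma adjusted p = 0.0017). The FPKM covers the whole gene, of which only exon 2 is deleted. A pair of libraries stood apart in other respects. Wnk1f/f replicate 4 had liver markers that summed to 158 FPKM, against 8.28 to 28.1 FPKM in the other libraries, and in Wnk1d/d replicate 4 a single entry took 70.3% of the summed FPKM, although the median log2(FPKM + 1) of the genes tested was 3.79 to 3.82 in all 9 libraries. The number of fragments per library is not stated by FPKM, so no counting error is given.

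The promoters of Sfrp2 and Dkk2 are shown because these were the members whose lower level was called under every setting tried. Each is the 250 bases upstream of the RefSeq start on GRCm38.p6 (mm10), read 5′ to 3′ on the plus strand, at chr3:83766071-83766320 for Sfrp2 and chr3:132085042-132085291 for Dkk2. Capitals mark matches, on either strand, to any of 3 motifs. The core motif of the progesterone and glucocorticoid receptors was searched as TGTTCT. The motif that positions transcription at a subset of promoters, the TATA box, was searched as TATAAA. For SP and KLF factors, the letters of their GC-rich box were searched as GGGCGG.
Sfrp2: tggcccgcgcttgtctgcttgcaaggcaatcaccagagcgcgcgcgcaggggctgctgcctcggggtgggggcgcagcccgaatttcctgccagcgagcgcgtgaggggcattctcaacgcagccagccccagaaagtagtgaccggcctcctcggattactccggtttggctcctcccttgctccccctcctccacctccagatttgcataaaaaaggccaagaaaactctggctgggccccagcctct
Dkk2: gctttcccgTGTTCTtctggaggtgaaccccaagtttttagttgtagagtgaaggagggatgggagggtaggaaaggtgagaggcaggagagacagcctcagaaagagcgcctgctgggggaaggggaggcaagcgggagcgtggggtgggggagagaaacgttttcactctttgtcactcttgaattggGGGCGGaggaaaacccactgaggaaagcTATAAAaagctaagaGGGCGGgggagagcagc
The Dkk2 window held the receptor motif at 1 place, the TATA box at 1 place and the GC box at 2 places, and the Sfrp2 window held none of them. Of 32851 promoters of the same length, 16.1% held the receptor motif, 12.4% the TATA box and 32.7% the GC box. CTTTGAT (TCF and LEF factors; 3.21% of promoters), GTAAACA (FOXO factors; 3.17%) and AGGTCA (core motif of the estrogen receptor; 14.0%) were not found in either window, nor in those of Frzb, Wif1, Dkk1 and Sfrp5, the other 4 members with a promoter entry. GC content was 63.6% for Sfrp2 and 55.6% for Dkk2, against a median of 52.4% over all promoters. These matches are a description of the letters only. Sfrp1, Sfrp4 and Dkk3 have no entry in the promoter table.

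Of the 9 genes, 6 had a mean above 1 FPKM in at least 1 genotype and were tested among 14728 genes. The level of 4 of them (Sfrp2, Dkk2, Dkk3 and Sfrp1) was called lower in Wnk1d/d uteri, that is, with an adjusted p under 0.05 by limma on log2(FPKM + 1). Over all genes tested, 11.0% were called lower and 11.1% higher. No member was called higher, and 0 of the 6 were higher at an unadjusted p under 0.05. Sfrp2, Dkk2 and Dkk3 also differed by 1.5 times or more in mean FPKM and so were differentially expressed genes (DEGs), against 5.18% of all genes that were DEGs lower and 5.09% that were DEGs higher in Wnk1d/d. The median log2 difference of the 6 was -0.51, beside 0.00 over all genes tested. Every Wnk1d/d library lay below every Wnk1f/f library for 3 members (Sfrp2, Dkk2 and Sfrp1), as it did for 10.6% of all genes. The calls of Sfrp1 and Dkk3 were less firm than those of Sfrp2 and Dkk2, as given for each below. The 9 libraries are of bulk tissue, in which fewer cells of a type and less RNA per cell cannot be told apart.

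**Figure D1:**
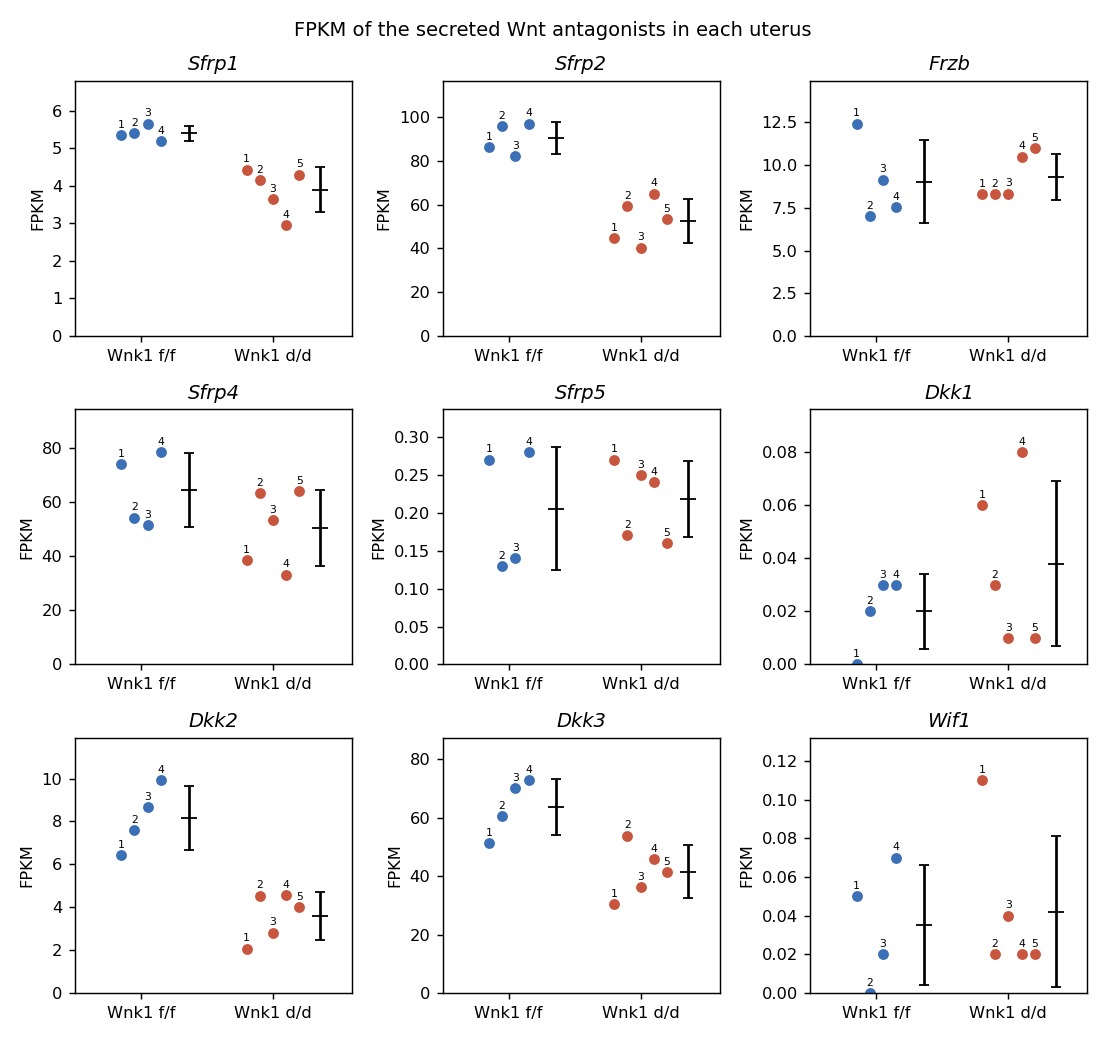
FPKM (vertical axes, each from 0 with its own scale) of the 9 genes in 4 Wnk1f/f and 5 Wnk1d/d libraries; points are libraries marked with their replicate number, and bars give the mean ± SD. The genotypes are apart for Sfrp1, Sfrp2 and Dkk2, share a range for Dkk3, Sfrp4 and Frzb, and stay under 0.3 FPKM for Sfrp5, Dkk1 and Wif1.

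Among the SFRP genes, Sfrp2 (mm10 chr3:83766321-83774316, plus strand) had the highest level of all 9 genes. It was at 86.1, 95.6, 82.0 and 97.0 FPKM in Wnk1f/f replicates 1 to 4 and at 44.6, 59.3, 40.3, 64.96 and 53.4 FPKM in Wnk1d/d replicates 1 to 5. The highest Wnk1d/d library was thus below the lowest Wnk1f/f library. The mean fell from 90.2 ± 7.28 FPKM (SD, n = 4) to 52.5 ± 10.2 FPKM (SD, n = 5), a log2 difference of -0.79 (standard error 0.14, limma adjusted p = 0.0067). The exact two-sided permutation test gave p = 0.0159, the smallest that this test, which doubles the smaller one-sided p, can give for 4 against 5 libraries. The antisense gene Gm26771 overlaps Sfrp2 on the other strand, and since the strand used for counting is not given in the sources used here, reads of the 2 genes may not have been told apart.

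Sfrp1 (mm10 chr8:23411502-23449632, plus strand) was expressed at a far lower level. It was at 5.35, 5.40, 5.66 and 5.19 FPKM in Wnk1f/f and at 4.43, 4.15, 3.64, 2.96 and 4.30 FPKM in Wnk1d/d libraries, in replicate order. The Wnk1f/f values lay close together and the Wnk1d/d values all lay beneath them. The log2 difference was -0.40 (standard error 0.10, limma adjusted p = 0.023) and the ratio of means 0.721, short of the DEG criterion. The adjusted p was 0.052 without Wnk1f/f replicate 3, 0.050 without Wnk1f/f replicate 4 and 0.056 without Wnk1d/d replicate 3, each just past the threshold.

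Sfrp4 (mm10 chr13:19623104-19632994, plus strand) was the second most abundant SFRP gene. Its values were 74.1, 54.4, 51.5 and 78.7 FPKM in Wnk1f/f and 38.7, 63.4, 53.4, 33.2 and 64.3 FPKM in Wnk1d/d libraries. The ranges overlapped widely, with 2 Wnk1d/d libraries below all Wnk1f/f libraries. The log2 difference of -0.37 was within the spread between libraries (95% interval -0.86 to 0.12, limma adjusted p = 0.24), so that a ratio between 0.550 and 1.09 is left by these data.

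Frzb (mm10 chr2:80411970-80447625, minus strand) was at 12.4, 7.0, 9.15 and 7.55 FPKM in Wnk1f/f and at 8.31, 8.32, 8.33, 10.5 and 11.0 FPKM in Wnk1d/d libraries. The highest value and the lowest pair of values were all of Wnk1f/f libraries, so that the Wnk1d/d range lay inside the Wnk1f/f range. The log2 difference was 0.06 (95% interval -0.29 to 0.41, limma adjusted p = 0.81), and its sign turned when single libraries were left out. Sfrp5 (mm10 chr19:42197971-42202252, minus strand) was between 0.13 and 0.28 FPKM in Wnk1f/f and between 0.16 and 0.27 FPKM in Wnk1d/d libraries and was not tested.

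Of the DKK genes, Dkk2 (mm10 chr3:132085292-132180304, plus strand) had the largest difference of the 6 tested members. It was at 6.43, 7.58, 8.68 and 9.91 FPKM in Wnk1f/f and at 2.07, 4.54, 2.81, 4.56 and 4.02 FPKM in Wnk1d/d libraries. Both genotypes kept apart, with Wnk1d/d replicates 1 and 3 lowest. The mean fell from 8.15 ± 1.49 FPKM (SD, n = 4) to 3.60 ± 1.11 FPKM (SD, n = 5), a log2 difference of -1.02 (standard error 0.19, limma adjusted p = 0.0091). With the pseudocount of 1 this difference understates the change of a gene at this level, and with pseudocounts of 0.1 and 0.01 it was -1.20 and -1.22.

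Dkk3 (mm10 chr7:112116017-112159057, minus strand) was the most abundant DKK gene. It was at 51.3, 60.6, 70.0 and 72.8 FPKM in Wnk1f/f and at 30.4, 53.9, 36.1, 45.7 and 41.4 FPKM in Wnk1d/d libraries. Wnk1d/d replicate 2 lay above Wnk1f/f replicate 1, and the other Wnk1d/d libraries lay below all Wnk1f/f libraries. The mean went from 63.7 ± 9.75 FPKM (SD, n = 4) to 41.5 ± 8.99 FPKM (SD, n = 5), a log2 difference of -0.62 (standard error 0.16, limma adjusted p = 0.028, exact permutation p = 0.032). The adjusted p rose above the threshold when 1 of 5 libraries was left out, to 0.052 without Wnk1f/f replicate 2, 0.062 without Wnk1f/f replicate 3, 0.077 without Wnk1f/f replicate 4, 0.067 without Wnk1d/d replicate 3 and 0.055 without Wnk1d/d replicate 5. Without Wnk1d/d replicate 1 Dkk3 stayed called (limma adjusted p = 0.045) but was no longer a DEG, with a ratio of means of 0.696.

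Dkk1 (mm10 chr19:30545863-30549665, minus strand), the classical LRP6 antagonist, was listed at 0 in Wnk1f/f replicate 1 and at 0.01 to 0.08 FPKM in the other libraries. Wif1 (mm10 chr10:121033960-121100650, plus strand) was listed at 0 in Wnk1f/f replicate 2 and at 0.02 to 0.11 FPKM elsewhere. Neither gene was tested, and neither separated the genotypes at these levels.

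**Figure D2:**
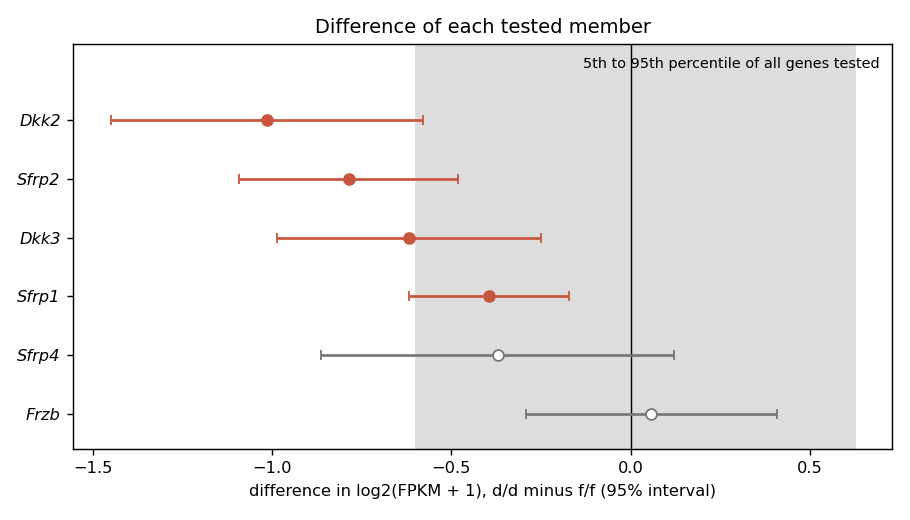
Difference in log2(FPKM + 1), Wnk1d/d minus Wnk1f/f (horizontal axis), with its 95% interval from limma for the 6 tested members; filled red points had an adjusted p under 0.05, and the grey band runs from the 5th to the 95th percentile of all genes tested (-0.60 to 0.63). Dkk2 (-1.02), Sfrp2 (-0.79) and Dkk3 (-0.62) lie below the band, and the intervals of Sfrp4 and Frzb hold 0.

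In Wnk1f/f uteri the levels ran in the order Sfrp2, Sfrp4, Dkk3, Frzb, Dkk2, Sfrp1, Sfrp5, Wif1 and Dkk1. Sfrp2 was above Sfrp4 in 4 of 4 libraries without overlap (90.2 against 64.7 FPKM on average), whereas Sfrp4 and Dkk3, Frzb and Dkk2, and Wif1 and Dkk1 overlapped. In Wnk1d/d uteri Sfrp2, Sfrp4 and Dkk3 were at 52.5, 50.6 and 41.5 FPKM, and each overlapped with the next, Sfrp2 being above Sfrp4 in 2 of 5 libraries. Dkk2 there had a mean of 3.60 FPKM, below the 3.90 FPKM of Sfrp1, with overlapping ranges, and Frzb was above both in 5 of 5 libraries. The plot of levels added up by library shows that Sfrp2, Sfrp4 and Dkk3 made up most of the sum in both genotypes.

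The summed FPKM of the 9 genes was 227 to 271 in Wnk1f/f and 129 to 194 in Wnk1d/d libraries, without overlap (241 ± 20.4 against 162 ± 25.9 FPKM, SD, n = 4 and 5). The 5 SFRP genes together were at 148 to 189 and 96.3 to 135 FPKM, again without overlap, and the 3 DKK genes at 57.7 to 82.7 and 32.5 to 58.4 FPKM, with overlap. Frzb took 2.78% to 5.27% of the sum in Wnk1f/f and 4.29% to 6.47% in Wnk1d/d libraries. Dkk2 took 2.72% to 3.82% and 1.61% to 2.81%.

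**Figure D3:**
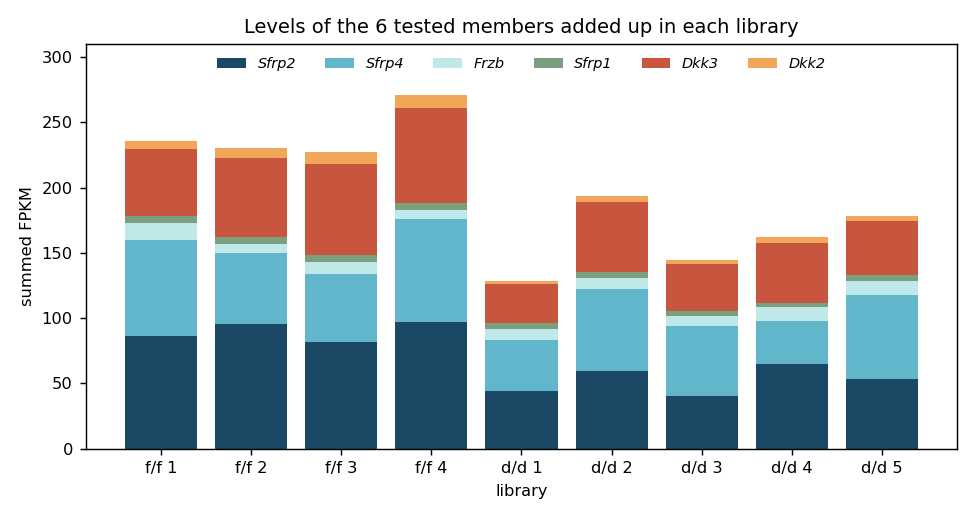
FPKM of the 6 tested members stacked in each library (vertical axis, from 0), with 4 Wnk1f/f libraries on the left and 5 Wnk1d/d libraries on the right. Every Wnk1d/d stack is lower than every Wnk1f/f stack, and Sfrp2, Sfrp4 and Dkk3 are the largest parts of each.

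Whether members moved unequally was asked of the difference in log2(FPKM + 1) within a library for each of 15 pairs, called their ratio here. A ratio of FPKM itself does not depend on scaling between libraries. With the pseudocount of 1 some dependence remains, most for members of low level. No pair passed after adjustment over the 15 pairs, and 4 had an unadjusted p under 0.05 by exact two-sided permutation tests. With a smallest p of 0.0159, adjustment could reach the threshold only if at least 5 pairs had that p. The ratio of Dkk2 to Dkk3 was -2.82 ± 0.05 in Wnk1f/f (SD, n = 4) and -3.22 ± 0.13 in Wnk1d/d libraries (SD, n = 5) on the log2 scale, with no overlap (exact permutation p = 0.0159, adjusted p = 0.12). Its change of -0.40 became -0.57 with a pseudocount of 0.1, where again no pair passed. The ratio of Sfrp2 to Frzb went from 3.21 to 2.37 without overlap (exact permutation p = 0.0159, adjusted p = 0.12). For Frzb over Dkk2 the change was 1.07 (exact permutation p = 0.032, adjusted p = 0.16) and for Sfrp1 over Dkk2 it was 0.62 (exact permutation p = 0.048, adjusted p = 0.17), both with overlapping ranges.

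**Figure D4:**
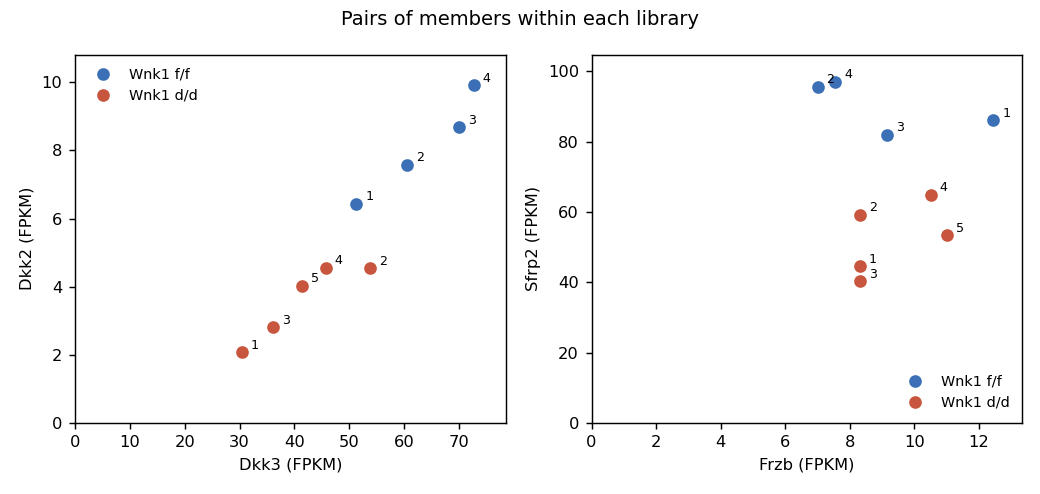
FPKM of Dkk2 against Dkk3 (left) and of Sfrp2 against Frzb (right), both axes linear from 0, with 1 point per library marked by its replicate number, blue for Wnk1f/f and red for Wnk1d/d. Dkk2 and Dkk3 rise together over the 9 libraries, while Sfrp2 separates the genotypes at like levels of Frzb.

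Dkk2 and Dkk3 varied together, with a Pearson correlation of log2(FPKM + 1) of 0.97 over the 9 libraries and 0.95 once the genotype means were taken out. Sfrp2 had correlations of 0.95 with Dkk2 and 0.89 with Dkk3 over the 9 libraries, and of 0.77 and 0.67 once the genotype means were taken out. Sfrp1 had correlations of 0.65 with Sfrp2, 0.63 with Dkk2 and 0.58 with Dkk3 over the 9 libraries. Once the genotype means were taken out, these were -0.42, -0.37 and -0.23. Frzb had correlations between -0.21 and 0.02 with the other 5 tested members over the 9 libraries. These are descriptions over 9 libraries that share the contrast between genotypes. The genes most like each member by this measure were Tek, Dkk2 and Gimap5 for Dkk3 (0.97 each), Smpd5, Fgd5 and Nadk2 for Dkk2 (0.99, 0.98 and 0.98), and Fam189a1, Polr3gl and AK169777 for Sfrp2 (0.99, 0.98 and 0.98). They were Efemp1, Jade1 and Gm14288 for Sfrp1 (0.96, 0.95 and 0.94), Idua, Myrip and Ndst2 for Sfrp4 (0.98, 0.96 and 0.94), and Svil, Exoc3l4 and Lix1l for Frzb (0.95, 0.94 and 0.93). Tek, the receptor for angiopoietins, is itself in the list of endothelial markers.

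Markers of several cell types moved with the genotype. Of 6 endothelial markers 5 were called lower and none higher, and their sum was 306 to 334 FPKM in Wnk1f/f and 118 to 255 FPKM in Wnk1d/d libraries. Wnk1d/d replicates 1 and 3, lowest in Sfrp2, Dkk2 and Dkk3, were also lowest in this sum (118 and 159 FPKM). Of 10 stromal markers 7 were called lower and 2 higher (Lum and Col1a1), and the sums overlapped (2407 to 2756 against 2275 to 2741 FPKM). Wnk1d/d replicates 1 and 3 were also the lowest libraries for the stromal markers Hand2, Nr2f2, Hoxa10 and Hoxa11. They were not the lowest pair for Pdgfra, Vim, Thy1, Dcn, Lum and Col1a1. All 9 smooth muscle markers were called higher, with sums of 3355 to 7383 and 8200 to 15221 FPKM. Of 6 gland markers 3 were called lower, and of 8 epithelial markers 2 were called higher. None of the 5 leukocyte markers in the table was called in either direction, whereas 1 of 5 mesothelial markers was called higher and 1 lower. The 4 oviduct markers summed to 15.6 to 22.6 and 38.3 to 93.0 FPKM, of which Ovgp1 was the bulk, and Foxj1 and Dnah5 were at or below 0.31 FPKM in all libraries.

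The members were set against these markers on the log2 scale, with the reference genes chosen after their values were seen. Relative to the mean of the 10 stromal markers, Sfrp2 changed by -0.61 and Dkk2 by -0.84, and neither overlapped between genotypes, while Dkk3 changed by -0.44 with overlap. Pdgfra, a stromal receptor, fell the most of the 10 stromal markers (log2 difference -0.78, from 65.5 to 37.7 FPKM), close to the difference of Sfrp2 itself. It does not stand for the list, in which 7 were called lower but Lum, Col1a1 and Dcn had positive differences (0.99, 0.96 and 0.20). Relative to Pdgfra alone all 6 members overlapped, with changes of -0.01 for Sfrp2, -0.24 for Dkk2, 0.16 for Dkk3, 0.38 for Sfrp1, 0.41 for Sfrp4 and 0.83 for Frzb. Relative to the mean of the 6 endothelial markers all 6 overlapped as well, with changes of 0.02, -0.20, 0.19, 0.42, 0.44 and 0.87 for the same genes. A member that fell less than a reference has a positive change against it by construction, as Sfrp1 (log2 difference -0.40) had against both. Likewise, a member that fell about as much as a reference has a small change by construction, as Sfrp2 (log2 difference -0.79) had against both. Relative to the mean of the 10 stromal markers Sfrp1 changed by -0.22, with overlap. The part of cell composition in the lower levels was not tested.

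The pathway around the antagonists was described by 82 other genes, of which 64 were tested. Of these, 16 (25.0%) were called lower and 7 (10.9%) higher, beside the 11.0% and 11.1% of all genes given above. Among 13 genes listed as other extracellular inhibitors and their co-receptors, 7 were tested and 1 was called, Notum, an enzyme that removes the lipid from Wnt proteins. The list also holds Ndp, which codes for an activating ligand rather than an inhibitor and was not called. Notum was at 3.24 to 6.02 FPKM in Wnk1f/f and 1.96 to 2.79 FPKM in Wnk1d/d libraries, a log2 difference of -0.71 (limma adjusted p = 0.012).

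Of 19 Wnt ligand genes 10 were tested, and 3 were called lower and 1 higher. Wnt6 had a log2 difference of -1.43 (limma adjusted p = 0.0048), Wnt7b of -1.35 (limma adjusted p = 0.021) and Wnt5b of -0.44 (limma adjusted p = 0.040), all DEGs. Wnt5a was the ligand called higher, from 33.6 to 45.7 FPKM without overlap (log2 difference 0.45, limma adjusted p = 0.034), and was not a DEG. The summed FPKM of the 9 antagonists over that of the 19 ligands was 1.41 to 2.15 in Wnk1f/f and 0.984 to 1.59 in Wnk1d/d libraries, with overlap.

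Of 16 receptor and co-receptor genes 15 were tested, with 1 called higher and 2 lower. The DEG among them was Fzd8, a Frizzled receptor, with a log2 difference of 0.56 (limma adjusted p = 0.0065). Of the 9 genes for R-spondins, their LGR receptors and ligases, 7 were tested, with 2 called higher and 1 lower. Lgr6, an R-spondin receptor, rose from 1.46 to 9.81 FPKM (log2 difference 2.14, limma adjusted p = 0.0014), and Rspo3, an R-spondin that strengthens Wnt signals, fell from 32.2 to 20.9 FPKM (log2 difference -0.60, limma adjusted p = 0.023).

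All 14 intracellular genes were tested, with 2 called higher and 3 lower, and Bcl9, a co-activator of beta-catenin, was the DEG (log2 difference 0.59, limma adjusted p = 0.019). All 11 target and feedback genes were tested, with 6 called lower and 1 higher. Axin2, a feedback inhibitor, fell from 36.2 to 23.5 FPKM (log2 difference -0.60, limma adjusted p = 0.023). The transcription factor genes Tcf7 and Lef1 had log2 differences of -0.70 (limma adjusted p = 0.0055) and -0.73 (limma adjusted p = 0.044). Ccnd1, which codes for cyclin D1, rose from 32.0 to 64.3 FPKM (log2 difference 1.03, limma adjusted p = 0.020). The ranges of the genotypes overlapped for Axin2, Lef1 and Ccnd1, and were apart for Tcf7.

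**Figure D5:**
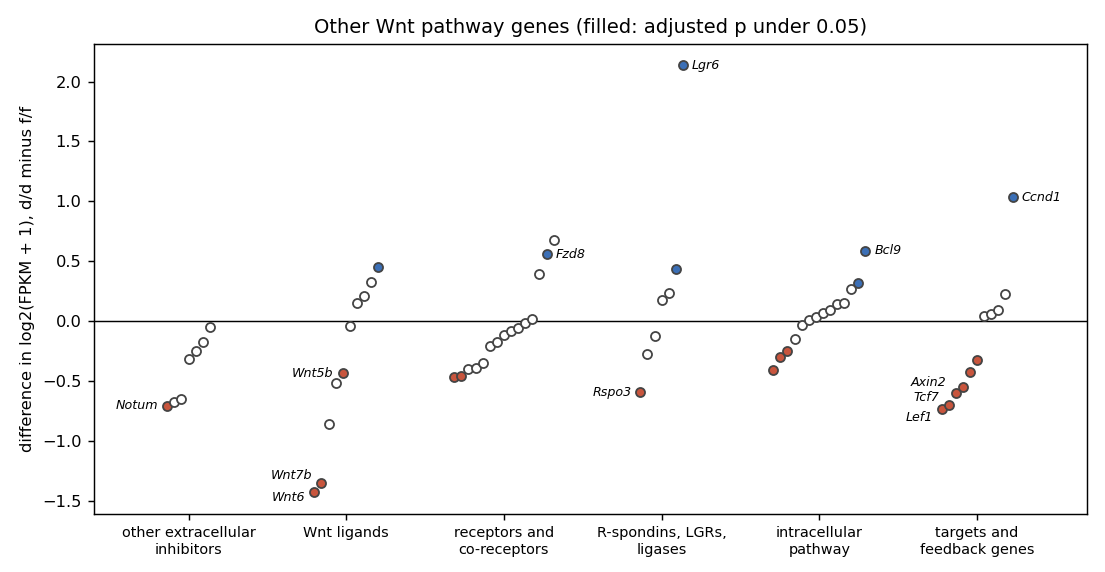
Difference in log2(FPKM + 1), Wnk1d/d minus Wnk1f/f (vertical axis), of the 64 tested genes of 6 Wnt pathway lists; filled points had an adjusted p under 0.05 (red lower, blue higher) and DEGs are named. The target and feedback genes hold 6 genes called lower and 1 called higher, and Lgr6 has the largest difference (2.14).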

How the data were processed

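Uterine RNA of 9 mice was sequenced by the authors as paired-end reads of 75 bases, which they aligned to mm10 with TopHat (2.0.4 per the submitters' processing notes). The deposited values are FPKM, computed by the authors with Cufflinks (2.0.2 per the labels, 2.2 in the methods), with 1 column per mouse and no pooling. The gene annotation and the counting strand are not given in the sources used here. FPKM states no depth, and reading the worth of 1 fragment from steps in low values gave no usable estimate.

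From FPKM as deposited, log2(FPKM + 1) was compared with limma 3.58.1 (R 4.3.3, trend, no covariate), unpaired, for genes whose mean in either genotype exceeded 1 FPKM, with Benjamini-Hochberg adjustment over all 14728. The authors' test, Cuffdiff, needs aligned reads and was not rerun. Within-library ratios were tested by exact permutation, two-sided (SciPy 1.17.1), whose two-sided p doubles the smaller one-sided p. The limma step was tested on simulated data. Coordinates are of GENCODE M21, and promoters of RefSeq on GRCm38.p6 (6 of 9 genes matched).

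Members, lists and tests were chosen with earlier results of these data known. Named are all members, the DEGs of the pathway lists and the 3 genes most correlated with each tested member. Wnt5a and Ndp are named besides. Marker lists are given by counts and ranges, with markers singled out after their values were seen. Alternatives were pseudocounts, filters, scalings, limma settings, a replicate block and leaving out each library, and, chosen after seeing the data, leaving out both replicate 4 libraries. P-values of limma set the difference between genotypes against the spread between mice of these 2 groups, moderated over all genes tested. Those of permutation tests rank the grouping by genotype among all groupings of these mice.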

Additional observations from a re-analysis of the deposited data

Results flagged for a closer look

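Each tested member and each DEG of the pathway lists was looked at for a library far from the rest of its genotype, in 36 groups of 4 or 5 libraries, of which chance flags about 1 in 20. The single such value was Wnt5b in Wnk1d/d replicate 2, at 2.97 FPKM, above the other Wnk1d/d libraries and still below every Wnk1f/f library. No member had such a library.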

How the results depend on the processing

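Sfrp2 and Dkk2 were called lower, and were DEGs, under all 19 alternatives, with adjusted p from 0.0052 to 0.044 for Sfrp2 and from 0.0067 to 0.044 for Dkk2. The calls of Sfrp1 and Dkk3 were lost with no filter on low values, where more genes were tested. Their limma adjusted p was 0.058 and 0.084, at log2 differences of -0.40 and -0.62. That left 2 members, 7 pathway genes lower and 3 higher called. Over all 31274 genes of that setting, 953 were called lower and 846 higher. The calls of Sfrp1 and Dkk3 were also lost without both replicate 4 libraries, chosen after seeing the data (-0.34 and -0.59, limma adjusted p = 0.059 and 0.094). There 2 members, 8 pathway genes lower and 3 higher were called. Over all 14662 genes of that setting, 608 were called lower and 534 higher. Frzb was at -0.052 and Sfrp4 at -0.13, from -0.37. The ratio of Frzb to Sfrp4 changed by 0.08, from 0.43, and that of Sfrp1 to Sfrp4 by -0.20. The replicate numbers of the titles belong to different mice and do not pair them (correlations of deviations between same-numbered mice from -0.27 to 0.02). With the replicate block, in which Wnk1d/d replicate 5 stands alone, 87 genes were called lower and 133 higher over all genes, against 1619 and 1630 without it. The block gave -0.43 for Sfrp1 (adjusted p = 0.092), -0.62 for Dkk3 (adjusted p = 0.074), -0.00081 for Frzb, 2 members, and 1 pathway gene in each direction.

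Leaving out each library in turn, the log2 difference ran from -0.87 to -0.70 for Sfrp2, -1.11 to -0.88 for Dkk2, -0.72 to -0.52 for Dkk3, -0.44 to -0.32 for Sfrp1, -0.47 to -0.23 for Sfrp4 and -0.04 to 0.21 for Frzb. Between 2 and 4 members were called lower, 7 to 21 pathway genes lower and 3 to 9 higher, while over all genes 909 to 2026 were called lower and 830 to 2190 higher. Dkk3 was no DEG without 6 of the libraries, among them Wnk1d/d replicate 1, where only the ratio criterion failed. The pathway count fell most without Wnk1f/f replicate 4 (7 lower, 4 higher), and was also over 1.5 times smaller in a direction without Wnk1f/f replicate 1 (9 lower) and Wnk1d/d replicates 1 (4 higher), 3 (10 lower, 3 higher) and 5 (8 lower, 4 higher). The ratio of Sfrp1 to Sfrp4, whose change was -0.02, ran from -0.15 to 0.09. The causes of these changes were not tested.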
